A study of Mus musculus with 6 samples.

Results

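The Z-disc and stretch-response genes described here are 10 genes for proteins of the plate that joins neighbouring sarcomeres, the contractile units of muscle, and of the titin spring beside it. They are Myoz2, Csrp3, Ankrd2, Myoz1, Actn3, Actn2, Ldb3, Tcap, Myot and Ankrd1. Their members on the array are all probe sets of the deposited value table that the platform's gene table assigns to exactly 1 of these symbols. That gave 14 probe sets of 45037 other than controls, for 10 of 18194 named genes. Ldb3 had 3 probe sets, Myoz1 and Ankrd1 had 2 each, and the other 7 genes had 1 each.

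Total RNA of the gastrocnemius, the large calf muscle, was measured in male mice of the strain given as C57B1/6 with a normal karyotype. The young group had 3 arrays, numbered 1 to 3 in the labels, and the aged group had 3, numbered 51 to 53. No treatment, transgene or mutation is given for either group, and no label gives an age. Whether an array held the RNA of 1 animal or of a pool is also unstated. A p-value here therefore speaks only of the variation among these 6 arrays, part of which may be technical. Whole muscle holds fibres of several types beside fat, tendon and connective tissue, and fewer cells of a type cannot be told apart from less RNA per cell.

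The Z-disc anchors the actin filaments of adjoining sarcomeres through alpha-actinin and also holds signalling proteins that respond to load. Several of its components exist as pairs of related proteins, of which one serves slow-twitch, oxidative fibres and the other fast-twitch, glycolytic fibres. Mouse gastrocnemius is mostly a fast muscle with a small slow part. The myozenins, also called calsarcins, tether the phosphatase calcineurin to alpha-actinin, Myoz2 in slow fibres and heart and Myoz1 in fast fibres. Csrp3, the muscle LIM protein, and the ankyrin repeat protein Ankrd2 are known chiefly from slow skeletal fibres, and both are linked to the response to stretch.

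Values are MAS5 signals, linear and scaled per array by the authors, and a change is the aged mean minus the young mean of log2 signal with its standard error (SE) from limma, n = 3 per group. An adjusted p is limma's with Benjamini-Hochberg adjustment over 22519 tested probe sets, and a gene fell or rose only where it lay under 0.05. A gene with several probe sets is represented by its brightest. Median signals of the 6 arrays ranged from 637 to 833, and the number of arrays limits the precision. Fluidics station 1 processed all young arrays and aged replicate 51, while aged replicates 52 and 53 ran on station 2 under another protocol name. The log2 ratio of 3 prime to 5 prime control signal, a measure of RNA quality, was 1.71 to 1.77 on the young and 2.00 to 2.86 on the aged arrays. These ranges do not overlap, so this ratio and the group cannot be told apart, also where the ratio serves as a covariate. The skeletal muscle markers Ckm, Acta1, Mb, Ttn and Neb were tested on all arrays, with a summed signal of 980795 to 1115040 in young and 740651 to 876643 in aged muscle, and 0 of these 5 passed limma's test (3 at an unadjusted p under 0.05).

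Of the 10 genes 4 fell in aged muscle, 0 rose and 6 did not pass. The 4 were all 3 slow-fibre members, Myoz2, Csrp3 and Ankrd2, and Actn2, an alpha-actinin that was not assigned to a fibre type here. Among all 11763 tested genes 1.39% passed in either direction and 1.00% were lower in aged muscle, and among all tested probe sets 1.05% passed. The median change of the 10 was -0.74, beside 0.0028 over all tested genes. All 10 genes had a tested probe set, and 13 of their 14 probe sets lay above the filter on dim signals, a mean log2 signal of 9.08. All 4 calls need a spread that is modelled as a trend with brightness: without that trend 0 of the 10 passed limma's test (adjusted p 0.142 to 0.299 for the 4), with 5 at an unadjusted p under 0.05, and 21 probe sets passed in all.

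**Figure D1:**
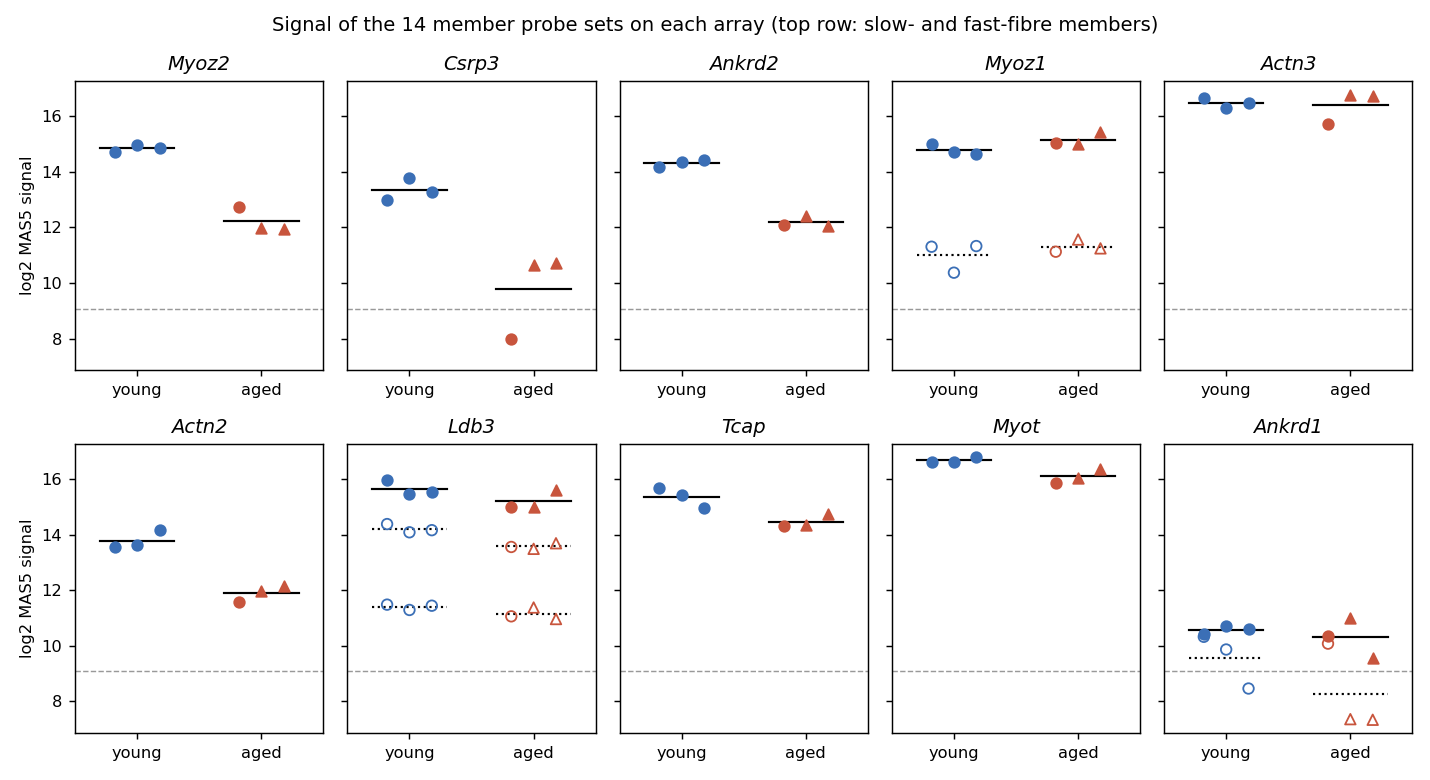
Log2 MAS5 signal of the 14 probe sets on each of the 6 arrays, with young arrays in blue and aged arrays in red, circles for fluidics station 1 and triangles for station 2. Filled points and solid lines (group means) are the brightest probe set of a gene, open points and dotted lines the others, and the dashed line is the filter at 9.08. The aged arrays lie below the young arrays for Myoz2, Csrp3, Ankrd2 and Actn2 with a mean change between -3.55 and -1.88, and the values of Actn3 and Ankrd1 overlap.

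The slow-fibre members all fell. Myoz2 (Entrez gene 59006) had signals of 27154, 32132 and 29683 on the young and 6869, 4011 and 3943 on the aged arrays. Each aged array was below each young array, and aged replicate 51 was the highest of the 3. By mean log2 signal Myoz2 was 6.20-fold higher in young muscle (change -2.63 ± 0.26 SE, adjusted p = 0.000315).

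Ankrd2 (Entrez gene 56642), an ankyrin repeat protein that binds titin beside the Z-disc and can move to the nucleus when muscle is stretched, had the narrowest spread of the 4. Its signals were 18686, 20855 and 21746 in young and 4378, 5429 and 4278 in aged muscle. The SD of its log2 signal was 0.11 in young and 0.19 in aged muscle, and the groups lay far apart. It was 4.37-fold higher in young muscle (change -2.13 ± 0.23 SE, adjusted p = 0.000497).

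Csrp3 (Entrez gene 13009), a LIM domain protein that binds alpha-actinin and Tcap, had the greatest change and the widest spread. Its signals were 8121, 14004 and 9789 in young and 255, 1619 and 1673 in aged muscle. Aged replicate 51 was far below the other aged arrays and below the signal of 540 that corresponds to the filter, and the SD of log2 signal was 1.55 in aged against 0.40 in young muscle. By mean log2 signal Csrp3 was 11.7-fold higher in young muscle (change -3.55 ± 0.61 SE, adjusted p = 0.012). Without aged replicate 51 the change was -2.66 (adjusted p = 0.0014), and among the arrays of station 1 alone, where replicate 51 is the only aged array, it was -5.34. Csrp3 did not pass without young replicate 2 (adjusted p = 0.0841) or young replicate 3 (adjusted p = 0.0505), nor with the RNA quality ratio as a covariate (-4.37, adjusted p = 0.0717).

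The fast-fibre members did not pass, 0 of 2 by limma and 0 of 2 at an unadjusted p under 0.05. Myoz1 (Entrez gene 59011), the calcineurin-binding myozenin of fast fibres, had signals of 32553, 26990 and 25458 in young and 33554, 33144 and 44143 in aged muscle. All 3 aged arrays lay above the young arrays, the closest pair by a small margin, as for 7.58% of all tested genes. The change was 0.38 ± 0.21 SE (adjusted p = 0.586), with a 95% interval of -0.08 to 0.84. The dimmer Myoz1 probe set had signals of 2529, 1324 and 2571 in young and 2234, 3025 and 2427 in aged muscle, which overlapped (change 0.31 ± 0.39 SE, adjusted p = 0.821).

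Actn3 (Entrez gene 11474), the alpha-actinin of fast glycolytic fibres, had signals of 102598, 79994 and 91450 in young and 54647, 110454 and 109320 in aged muscle. The aged arrays lay on both sides of the young ones, with replicate 51 the lowest of all 6 and replicates 52 and 53 the highest. The change was -0.06 ± 0.28 SE (adjusted p = 0.956), with a 95% interval of -0.66 to 0.54. Its sign was not stable: it was 0.14 after quantile normalization and 0.27 without aged replicate 51, and neither passed (adjusted p = 0.859 and 0.752). Among the arrays of station 1, where replicate 51 is the only aged array, the change was -0.73. An interval this wide does not show that Actn3 kept its level.

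**Figure D2:**
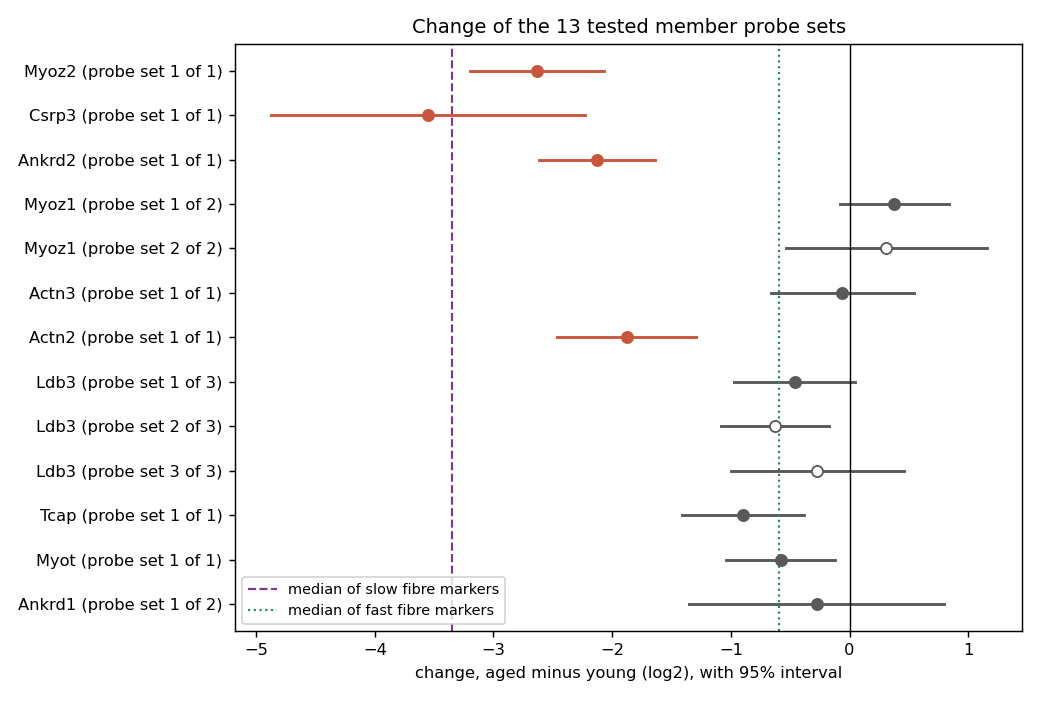
Change (aged minus young, log2) of the 13 tested probe sets with its 95% interval from limma, filled for the brightest probe set of a gene and open for the others, red where the adjusted p was under 0.05. The dashed and dotted lines are the medians of 8 slow fibre markers (-3.35) and 11 fast fibre markers (-0.59). The 3 slow-fibre members and Actn2 lie between -3.55 and -1.88, and the other genes between -0.90 and 0.38.

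Actn2 (Entrez gene 11472) crosslinks actin at the Z-disc. Its signals were 11947, 12724 and 18139 in young and 3075, 3995 and 4513 in aged muscle. The lowest young array was far above the highest aged array. By mean log2 signal Actn2 was 3.68-fold higher in young muscle (change -1.88 ± 0.27 SE, adjusted p = 0.00372). Among the arrays of station 1, where replicate 51 is the only aged array, the change of Actn2 was -2.19. There Myoz2 was at -2.11 and Ankrd2 at -2.22.

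Of the 4 remaining genes, also not assigned to a fibre type, 0 passed by limma, while Tcap and Myot had an unadjusted p under 0.05. Tcap (Entrez gene 21393), or telethonin, caps the ends of 2 titin molecules at the Z-disc. Its signals were 52817, 44226 and 32077 in young and 20391, 20724 and 27374 in aged muscle. The groups did not overlap, although young replicate 3 lay nearer to aged replicate 53 than to the other young arrays. The change was -0.90 ± 0.24 SE (adjusted p = 0.133), and its 95% interval of -1.41 to -0.38 did not reach 0 before adjustment.

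Myot (Entrez gene 58916), or myotilin, which binds alpha-actinin and filamin C, had signals of 99849, 99358 and 113611 in young and 59390, 67336 and 84738 in aged muscle. The aged arrays were all below the young ones, and aged replicate 53 was the closest to them. The change was -0.58 ± 0.21 SE (adjusted p = 0.35).

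Ldb3 (Entrez gene 24131), also known as ZASP or Cypher, is a PDZ and LIM domain protein that binds alpha-actinin and helps keep the Z-disc intact under load. Its brightest probe set had signals of 63051, 45306 and 47643 in young and 32721, 32174 and 49426 in aged muscle. Aged replicate 53 lay within the young range. The change was -0.46 ± 0.24 SE (adjusted p = 0.543). The second probe set had signals of 21258, 17317 and 18257 in young and 12009, 11463 and 13177 in aged muscle, which did not overlap, as for 8.74% of all tested probe sets (-0.63 ± 0.21 SE, adjusted p = 0.279). The third had signals of 2850, 2495 and 2776 against 2129, 2653 and 1991, which did (-0.27 ± 0.33 SE, adjusted p = 0.817). All 3 pointed down and none passed.

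Ankrd1 (Entrez gene 107765), a stretch-induced protein better known from heart and injured muscle, was the dimmest of the 10. Its brighter probe set had signals of 1372, 1655 and 1566 in young and 1305, 2023 and 755 in aged muscle, with the aged arrays on both sides of the young ones. The change was -0.28 ± 0.49 SE (adjusted p = 0.876), and its 95% interval of -1.35 to 0.79 is the widest among the 6 genes that did not pass. With the RNA quality ratio as a covariate the change was 0.54. The other probe set was left out as dim and differed from it on the same arrays, with signals of 1278, 931 and 352 in young and 1078, 164 and 161 in aged muscle.

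In all, the 3 aged arrays lay below the 3 young arrays for 6 of the 10 genes, beside 9.63% of all tested genes, and above them for Myoz1 alone among the 10. For 9 of the 10 the change was below 0, beside 49.8% of all tested genes. The same held for all 8 slow fibre, all 11 fast fibre and all 5 general muscle markers. The aged arrays lay below the young ones for 8, 7 and 3 of these.

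The pairs of related proteins allowed a comparison within each array, in which the scaling of the array cancels. The size of a ratio on 1 array depends on the probe sets and says nothing of which gene is the more abundant, so only its change with age is compared. The log2 ratio of Myoz2 to Myoz1 was -0.26, 0.25 and 0.22 on the young and -2.29, -3.05 and -3.48 on the aged arrays, a change of -3.01 or 8.06-fold. That of Actn2 to Actn3 was -3.10, -2.65 and -2.33 on the young and -4.15, -4.79 and -4.60 on the aged arrays, a change of -1.82 or 3.52-fold. The ratio of Ankrd2 to Ankrd1 was 3.77, 3.66 and 3.80 on the young and 1.75, 1.42 and 2.50 on the aged arrays, a change of -1.85 or 3.60-fold. In each of the 3 pairs all aged arrays were below all young arrays. Of single tested genes 9.63% lay so, and no such share was computed for ratios of other genes. The first gene of each pair had itself fallen and the second had not passed, so these ratios are not a result separate from those calls. The exact two-sided permutation test gave p = 0.1 for each of the 3 pairs, also after Benjamini-Hochberg adjustment over them. This is the smallest p that 3 against 3 arrays allow, so these differences cannot pass 0.05 in this design. With both Ankrd1 probe sets averaged, the change of the last ratio was -1.34.

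**Figure D3:**
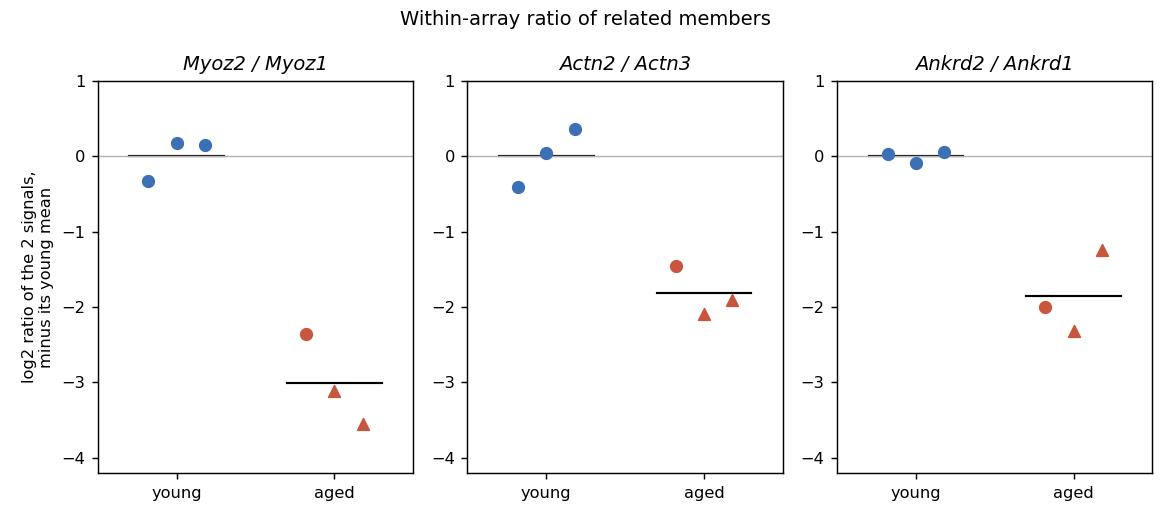
Log2 ratio of the signals of 2 related members on each array, minus its mean over the young arrays, with young arrays in blue, aged arrays in red, circles for station 1 and triangles for station 2, and lines for the group means. The aged mean lies at -3.01 for Myoz2 over Myoz1, -1.82 for Actn2 over Actn3 and -1.85 for Ankrd2 over Ankrd1, with no overlap between the groups.

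The promoters of the 4 genes that fell are shown because each of these genes was lower in aged muscle. RefSeq windows were found for 6 of the 10 genes (8 windows) and not for Myoz1, Actn3, Tcap and Myot. The sequences run 5′ to 3′ toward the start of the gene on its own strand, build GRCm38.p6, and hold only bases outside the annotated gene. Capitals mark the E-box CANNTG, the site type of myogenic factors, and the MEF2 box, each searched on both strands.
Myoz2, chr3:123035004-123035237, minus strand: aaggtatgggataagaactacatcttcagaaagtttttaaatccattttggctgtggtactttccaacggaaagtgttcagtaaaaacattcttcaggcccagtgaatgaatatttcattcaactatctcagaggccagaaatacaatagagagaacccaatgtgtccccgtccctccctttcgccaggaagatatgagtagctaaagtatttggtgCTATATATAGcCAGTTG
Csrp3, chr7:48848052-48848301, minus strand: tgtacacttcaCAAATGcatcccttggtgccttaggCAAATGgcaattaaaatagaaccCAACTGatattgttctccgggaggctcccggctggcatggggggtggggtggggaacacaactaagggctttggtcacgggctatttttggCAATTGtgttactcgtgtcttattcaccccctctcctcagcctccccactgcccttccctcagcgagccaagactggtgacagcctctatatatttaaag
Ankrd2, chr19:42035777-42035916, plus strand: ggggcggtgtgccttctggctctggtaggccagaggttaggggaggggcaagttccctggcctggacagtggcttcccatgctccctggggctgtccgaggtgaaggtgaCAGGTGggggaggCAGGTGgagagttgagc
Actn2, chr13:12340733-12340982, minus strand: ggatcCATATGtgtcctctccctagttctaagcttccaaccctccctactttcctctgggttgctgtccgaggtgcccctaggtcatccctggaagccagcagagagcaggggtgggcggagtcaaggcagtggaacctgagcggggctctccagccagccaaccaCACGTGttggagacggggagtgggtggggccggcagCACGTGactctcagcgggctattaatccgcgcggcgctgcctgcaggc

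Motifs were counted over all 250 bases searched in a window, also those inside the annotated gene. The printed sequences leave out 16 such bases for Myoz2 and 110 for Ankrd2, and so show 1 and 2 E-boxes. Over the 250 bases the E-box occurred 2 times in Myoz2, 4 times in each Csrp3 window and 3 times each in Ankrd2 and Actn2. It occurred once in Ankrd1 and in neither Ldb3 window. It is common, with 66.2% of 32851 promoter windows holding at least 1. The MEF2 box was found in Myoz2 alone among the 6 genes, as a run that ends just before an E-box, and 2.92% of all windows hold it. The MCAT motif CATTCC occurred 2 times in Ankrd1 and in no other window of the 6 genes, against 12.6% of all windows. The NFAT core GGAAA, bound by a factor that calcineurin activates, occurred 2 times in Myoz2, once in Actn2 and once in the second Csrp3 window, against 55.6% of all windows. None of the matched letters of these motifs is by itself a binding site.

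Markers of slow fibres were lower in aged muscle beside the 3 slow-fibre members and Actn2. Of 8 slow fibre markers 6 fell, 0 rose and 2 did not pass, with a median change of -3.35. The 2 were Tnni1 (-2.63, adjusted p = 0.0966) and Tpm3 (-0.58, adjusted p = 0.405). The other tested probe sets of Tpm3 were at -4.16, -3.19 and -0.93. The summed signal of the 8 markers was 135467 to 161356 in young and 23561 to 27837 in aged muscle. The slow myosin heavy chain Myh7 had signals of 10544, 19475 and 15674 in young and 324, 2801 and 211 in aged muscle (-4.68 ± 0.74 SE, adjusted p = 0.00719). Its change was -5.82 without aged replicate 52 and -3.95 without aged replicate 53. Myh7 did not pass without young replicate 2 (adjusted p = 0.0533), with the RNA quality ratio as a covariate (-2.96, adjusted p = 0.228) or without the trend (adjusted p = 0.257). Among the aged arrays it was highest on replicate 52, while Csrp3 was lowest on replicate 51 and Myoz2 highest there, so these genes did not share 1 order over the aged arrays.

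Of 11 fast fibre markers, one of which is Actn3 itself, 2 fell, 0 rose and 9 did not pass, with a median of -0.59 and a summed signal of 3291240 to 4153400 in young and 2314460 to 2790630 in aged muscle. All 11 changes were below 0, and 7 had an unadjusted p under 0.05 by limma. Myh2, the myosin heavy chain of the more oxidative fast fibres, fell (-2.38 ± 0.25 SE, adjusted p = 0.000497), as did Myl1 (-1.04 ± 0.22 SE, adjusted p = 0.0428). Myh1, of intermediate fast fibres, was at -0.59 ± 0.23 SE (adjusted p = 0.406), and Myh4, of the fastest fibres, at -0.15 ± 0.26 SE (adjusted p = 0.872). The changes of Tcap, Myot and Ldb3, -0.90 to -0.46, lay in the range of the fast fibre markers (-2.38 to -0.06) and near the median of the general muscle markers (-0.63).

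Markers of other tissues also differed between the groups. Of 6 fibroblast markers 5 fell (summed signal 707769 to 930642 in young and 63439 to 79834 in aged muscle). In young muscle most of this sum came from the collagens Col1a1, Col1a2 and Col3a1. The fibroblast surface marker Pdgfra did not pass (-0.23 ± 0.31 SE, adjusted p = 0.832). Of 5 tendon markers 3 fell (60445 to 77069 against 17131 to 18866), while Scx and Mkx did not pass (adjusted p = 0.921 and 0.806). Of 4 measured fat cell markers 3 rose (70937 to 82543 against 147666 to 251779), and of 2 tested smooth muscle markers 1 fell (4 in the sums, 50952 to 61688 against 27815 to 30975). Of 2 blood markers Hbb-b1 had no probe set assigned to its symbol alone. The other, Hba-a1, was dim on average (74 to 415 against 84 to 1534) and was not tested. The part of these tissues in the members' changes was not tested. Of 5 heart markers 3 lay below the filter, and 0 of the 2 tested passed limma's test (0 at an unadjusted p under 0.05). The summed signal of all 5 was 1060 to 4290 in young and 2688 to 6629 in aged muscle. Nppa, which lay below the filter, had signals of 92, 641 and 115 in young and 1457, 738 and 1040 in aged muscle. The groups overlapped for Myh6, Tnni3, Tnnt2 and Mybpc3. Whether heart tissue had a part in the members' changes was not tested.

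A wider list of 46 other Z-disc, sarcomere-capping and mechanosensing genes was set beside the 10. Of these 38 were tested, 5 had no named probe set and 3 were dim. In aged muscle 4 fell, 0 rose and 34 did not pass, against 1.00% of all tested genes that were lower. The median change was -0.22, 23 of the 38 were negative, and for 11 the aged arrays lay below the young ones, beside 9.63% of all genes. When the spread was not modelled by brightness, 0 of the 38 passed limma's test (7 at an unadjusted p under 0.05).

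**Figure D4:**
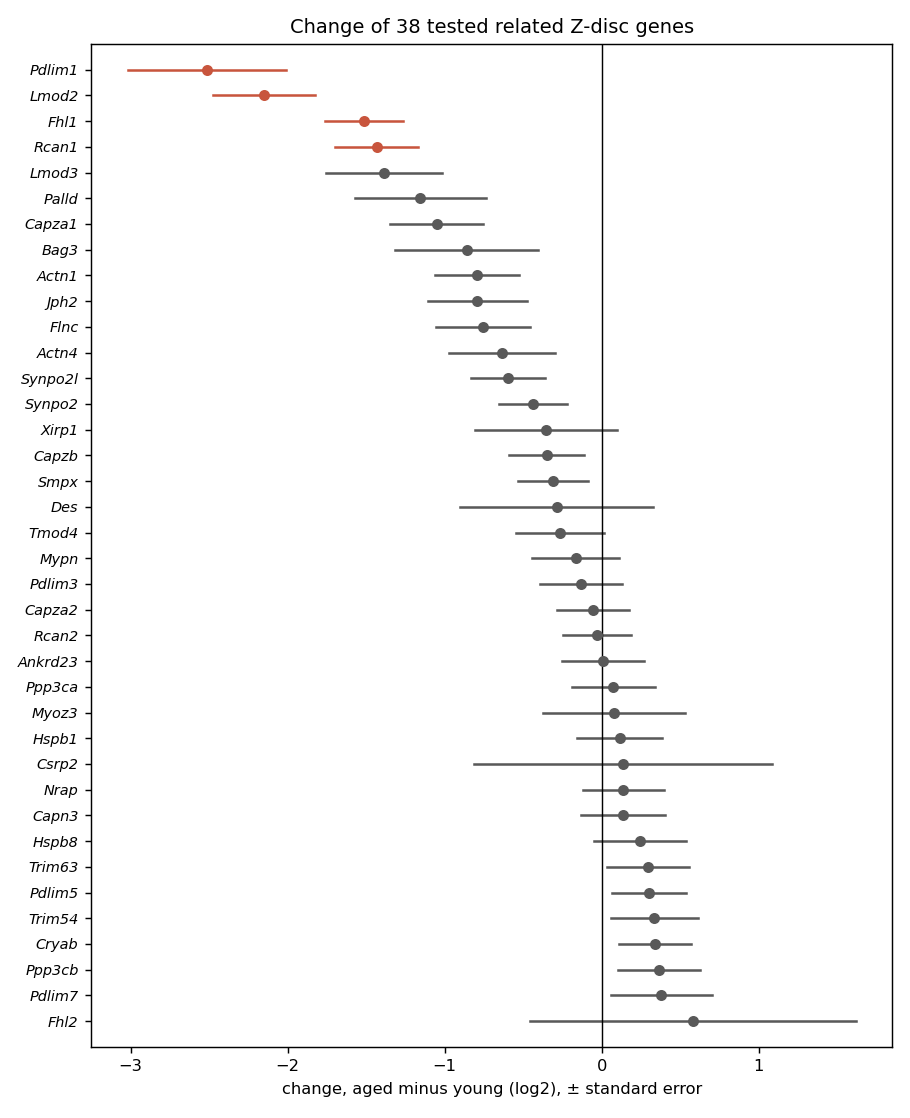
Change (aged minus young, log2) of the 38 tested related genes, each at its brightest probe set, with its standard error from limma, red where the adjusted p was under 0.05. Pdlim1, Lmod2, Fhl1 and Rcan1 lie between -2.52 and -1.43 in red, and 15 genes have a change above 0.

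The LIM domain protein Pdlim1, which binds alpha-actinin, had signals of 5079, 5421 and 5317 in young and 375, 1395 and 1498 in aged muscle (-2.52 ± 0.51 SE, adjusted p = 0.0336). Its lowest value was on aged replicate 51, as for Csrp3, and its other tested probe set was at 0.79. The change of Pdlim1 was -1.87 without aged replicate 51 and -0.86 with probe sets averaged (adjusted p = 0.0148 and 0.595). On station 1 alone, with replicate 51 as the only aged array, it was -3.81. Lmod2, a leiomodin that lengthens actin filaments at the far end from the Z-disc, had signals of 13793, 11902 and 7430 in young and 3293, 1858 and 2276 in aged muscle (-2.15 ± 0.33 SE, adjusted p = 0.00541). Fhl1, a LIM-only protein of the sarcomere, was 2.86-fold higher in young muscle (-1.51 ± 0.25 SE, adjusted p = 0.00869), with its other probe set at -0.22.

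Rcan1, an inhibitor of calcineurin, had signals of 9125, 9509 and 8709 in young and 3608, 2710 and 3920 in aged muscle (-1.43 ± 0.26 SE, adjusted p = 0.0191), with its other probe set at -0.60. These 4 calls were less firm than those of Myoz2, Ankrd2 and Actn2, which were lost in 1 of 19 alternatives each. Lmod2 was lost in 4, as was the called member Csrp3, Fhl1 in 6, Pdlim1 in 7 and Rcan1 in 10. With the fluidics station as a covariate Pdlim1 alone of the 38 passed. In that fit the change is that of aged replicate 51 against the young arrays, and Pdlim1 was lowest on this replicate. With the RNA quality ratio Capza1, an actin-capping subunit chosen after its values were seen, passed alone. With all probe sets of a gene averaged Lmod2 alone passed. Leaving out young replicate 1 left 2 of the 38 past the test, and leaving out young replicate 2 or 3 left 1.

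Other partners of the members did not pass. Myoz3, the third myozenin, had signals of 4143, 2056 and 1619 in young and 1726, 2292 and 4101 in aged muscle, which overlapped (0.08 ± 0.45 SE, adjusted p = 0.968). Ankrd23, the third muscle ankyrin repeat protein, had 20956, 18107 and 19417 in young and 13113, 26340 and 21761 in aged muscle (0.01 ± 0.26 SE, adjusted p = 0.994). The signs of both changed between settings. The calcineurin subunits Ppp3ca (0.07 ± 0.27 SE, adjusted p = 0.941) and Ppp3cb (0.37 ± 0.26 SE, adjusted p = 0.673), which the myozenins tether, were chosen after their values were seen. The 4 tested probe sets of Ppp3cb disagreed in sign, at -0.74, 0.12, 0.37 and 0.75.

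**Figure D5:**
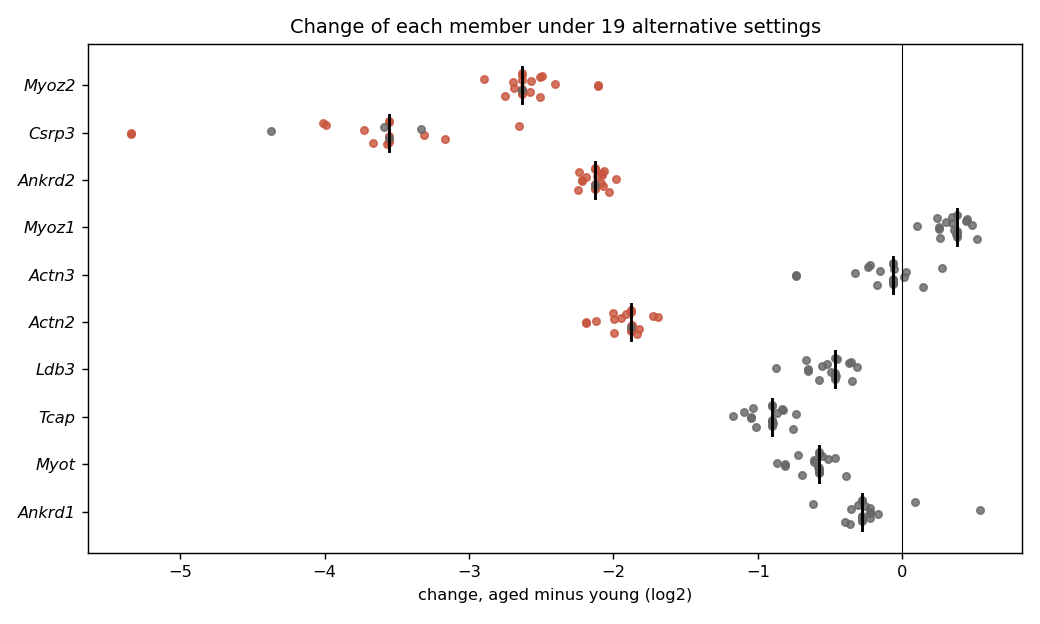
Change (aged minus young, log2) of each of the 10 genes under 19 alternative settings, as points that are red where the adjusted p was under 0.05 and grey otherwise, with the value of the main setting as a black line. Myoz2, Ankrd2 and Actn2 stay within -2.90 to -1.69 and Csrp3 spans -5.34 to -2.66, while Actn3 spans -0.73 to 0.27 and Ankrd1 -0.62 to 0.54.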

How the data were processed

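The deposited values are linear intensities, 1 MAS5 signal per probe set and array per the submitters' processing notes, which name no version or setting. Each deposited array had a trimmed mean (2% cut from both tails) of 1500, so signals were scaled to a common mean, which assumes that this mean is alike in all samples. The run settings (other text values) deposited with each array gave the fluidics station and protocol.

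Signals were taken to log2, 64 control probe sets were left out, and probe sets with a mean log2 signal below the median, 9.08, counted as dim and were not tested, because detection calls were not used here. The aged minus young contrast was fitted by limma 3.58.1 under R 4.3.3 (lmFit, eBayes with trend, two-sided, Benjamini-Hochberg, threshold 0.05). The platform gene table gave 34958 probe sets a single symbol. Related pairs were tested by exact permutation over arrays. The steps were tested on simulated data, and no array duplicated another. Figures used matplotlib 3.10.9.

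The members and lists were chosen with earlier results of these data known. Named were all 10 members, Myoz3, Ankrd23, up to 8 called related genes, Myh7, Myh2, Myh1 and Myh4, and for each called member its closest gene by correlation. Alternatives were quantile normalization, median centring, no or a stricter filter (mean log2 10.3), a pseudocount of 219, eBayes without trend or robust, array weights, station or RNA quality as a covariate, station 1 alone, each array left out, probe sets averaged, and cross-hybridising probe sets (x and s types) left out.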

Additional observations from a re-analysis of the deposited data

How the results depend on the processing

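Over 19 alternatives Myoz2, Ankrd2 and Actn2 kept their direction and lost their call only without the trend, and Csrp3 lost it in 4. The number of called members was 0 without the trend and 3 to 4 with 1 array left out. For the 38 related genes it was 0 without the trend, 1 with the station covariate, 2 on station 1 alone, 1 with the RNA quality covariate, 1 with probe sets averaged and 1 to 5 with 1 array left out. Over all probe sets 237 passed, against 21 without the trend, 365 on station 1 alone, 138 with the RNA quality covariate and 124 to 342 with 1 array left out.

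Changes that turned sign were all of genes that did not pass. Actn3 was at 0.14 after quantile normalization, 0.011 with array weights and -0.23 to 0.27 with 1 array left out. Ankrd1 was at 0.54 with the RNA quality covariate and -0.62 to 0.090 with 1 array left out. Myoz3 was at -0.038 after median centring, -0.47 with the station covariate or on station 1, -0.58 with the RNA quality covariate and -0.27 to 0.47 with 1 array left out. Ankrd23 was at -0.11, -0.57, -0.073 and -0.20 to 0.30 in the same order, and Myh4 at 0.089 with the station covariate or on station 1. The cause was not tested. Median centring set the median change of tested probe sets at -0.11, against 0.0079 as deposited and -0.025 after quantile normalization. The ratios of the 3 pairs kept their direction under quantile normalization, the pseudocount, each array left out and probe sets averaged. Median centring cannot change such a ratio, because the scaling of an array cancels in it. The fit on station 1 has 1 aged array and takes its spread from the young ones. With the station as a covariate the change is the same as in that fit, aged replicate 51 against the young arrays. No paired analysis was possible because the young and aged replicates share no number. Low signal limits the second Ankrd1 probe set, which lay below the filter. It also limits aged values below the filter's signal of 540, among them 2 of Myh7 and 1 each of Csrp3 and Pdlim1. Those of Csrp3 and Pdlim1 were both on aged replicate 51.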

Other observations

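Among 11753 tested genes outside the 10, the one whose log2 signal followed a called member most closely over the 6 arrays was Pdlim1 for Csrp3 (r = 0.995), Tpm4 for Actn2 (r = 0.994), Arsi for Myoz2 (r = 0.997) and Rpl41 for Ankrd2 (r = 0.995). Between 97 and 107 genes had an r above 0.95 with each. These values describe 6 arrays in 2 groups that share their scaling, and include the difference between the groups. Tpm4, a cytoskeletal tropomyosin, fell in aged muscle (-1.81, adjusted p = 0.0114), while Arsi (-2.30, adjusted p = 0.14) and Rpl41 (-0.61, adjusted p = 0.275) did not pass.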
